A study of Mus musculus with 2 samples.

Results

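The genes of the local renin-angiotensin system were followed in total RNA of the mouse adrenal gland. The 9 members, Ren1, Agt, Ace, Enpep, Lnpep, Agtrap, Atp6ap2, Agtr2 and Mas1, were chosen by symbol, with no measured value in the rule. Earlier results of these data were known when they were chosen. All 9 were found among the 55536 annotated genes of the tables. The samples were adrenal glands of adult female mice, 8 to 10 months old, bred from 5xFAD, an Alzheimer's disease model with human transgenes under the Thy1 promoter, and CAST, a wild-derived strain. They formed a single group of 2 biological replicates, here mouse 2 and mouse 1 as numbered in the labels, and no wild-type or untreated group was analysed here. Both libraries carried the same donor identifier, so whether they came from 2 animals is not settled and differences between them may be technical. Whether each animal carried the transgenes was not stated. The p-values set the difference between these libraries against counting error only and measure no spread between animals. Depth in annotated genes was 32192201 expected counts in mouse 2, against 36558609 in mouse 1.

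The renin-angiotensin system makes small peptide hormones from 1 large precursor. Renin cuts angiotensinogen, angiotensin-converting enzyme trims the product to angiotensin II, and further peptidases shorten or destroy that peptide. In the adrenal gland angiotensin II is known to drive aldosterone release from the zona glomerulosa through receptors of the Agtr1 type, and a tissue can hold its own set of these parts beside the circulating ones.

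Cortex, zona glomerulosa and medulla were all present. All 8 adrenal cortex markers, all 5 zona glomerulosa markers and all 6 chromaffin cell markers reached 1 TPM in both mice, with summed levels of 22172 and 20599 TPM, 348 and 345 TPM, and 1952 and 2080 TPM in mouse 2 and mouse 1. TPM, a share of all transcripts, is scaled to transcript length. All 10 endothelial markers reached 1 TPM, with sums of 255 and 203 TPM, as did all 6 macrophage markers, with sums of 102 and 89.2 TPM. Of the 8 smooth muscle and pericyte markers 7 did, with sums of 64.9 and 61.4 TPM. In the second deposited quantification the zona glomerulosa sum was 599 TPM in mouse 2 and 606 TPM in mouse 1. Cyp11b2 stood there at 400 and 430 TPM, against 161 and 183 TPM in the first. In bulk tissue fewer cells of a type and less RNA per cell cannot be told apart.

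Start sites were looked at first, because the Ace gene has 2 of them that make different enzymes and because Ren1 and Agt supply the first step of the cascade. RefSeq windows of 300 bases, 250 before and 50 after each annotated start in GRCm38.p6, covered all 9 members with 10 windows. The 4 windows of Ren1, Agt and Ace follow, read 5′ to 3′ on the strand of the gene. Capitals mark 3 motifs, on either strand: TATAAA (the letters of a TATA box), then GGGCGG (those of a GC box) and the element AAGGTCA.
Ren1, chr1:133350424-133350723, + strand: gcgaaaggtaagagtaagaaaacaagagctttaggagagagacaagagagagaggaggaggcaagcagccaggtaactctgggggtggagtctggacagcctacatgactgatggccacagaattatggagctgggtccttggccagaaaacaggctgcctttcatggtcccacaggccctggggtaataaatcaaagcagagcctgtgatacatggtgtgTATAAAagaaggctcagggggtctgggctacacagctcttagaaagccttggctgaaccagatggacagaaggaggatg
Agt, chr8:124569657-124569956, - strand: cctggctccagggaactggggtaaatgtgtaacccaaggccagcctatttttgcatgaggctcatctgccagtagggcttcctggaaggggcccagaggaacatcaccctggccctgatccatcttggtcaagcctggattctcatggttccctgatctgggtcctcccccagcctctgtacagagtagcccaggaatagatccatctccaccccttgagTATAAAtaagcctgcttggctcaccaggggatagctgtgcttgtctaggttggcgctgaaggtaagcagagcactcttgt
Ace upstream start, chr11:105967698-105967997, + strand: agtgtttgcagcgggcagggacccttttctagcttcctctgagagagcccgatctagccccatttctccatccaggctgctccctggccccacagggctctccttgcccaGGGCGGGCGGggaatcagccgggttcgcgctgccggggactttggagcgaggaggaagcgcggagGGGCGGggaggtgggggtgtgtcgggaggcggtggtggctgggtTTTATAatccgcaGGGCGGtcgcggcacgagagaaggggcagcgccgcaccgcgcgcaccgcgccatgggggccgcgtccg
Ace internal start, chr11:105974939-105975238, + strand: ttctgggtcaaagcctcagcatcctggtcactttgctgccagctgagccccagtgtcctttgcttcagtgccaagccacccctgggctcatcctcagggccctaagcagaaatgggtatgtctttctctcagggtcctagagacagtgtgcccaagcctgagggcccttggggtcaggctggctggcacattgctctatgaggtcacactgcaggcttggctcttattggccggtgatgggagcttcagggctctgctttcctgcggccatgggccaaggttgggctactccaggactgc

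TATAAA began at position -29 from the start of Ren1 and at position -30 of Agt. The upstream Ace window had it on the opposite strand at position -31, beside 4 copies of GGGCGG, of which the pair nearest the 5′ end overlap each other. The internal Ace window held none of these motifs. TATAAA was found in 4 of the 10 member windows, the fourth being that of Enpep, and in 13.6% of all 32851 windows of this length. GGGCGG was found in 4 of the 10, those of Ace, Lnpep, Agtrap and Atp6ap2, and in 35.7% of all windows. AAGGTCA, letters bound by the steroidogenic factor Nr5a1, was found in none of the 10 and in 4.72% of all windows. TATAAA and GGGCGG did not overlap in these windows. The Ren1 transcript of the count tables begins 164 bases before the RefSeq start, so its window lies partly inside that transcript.

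The 9 members spanned 3 ranges of level. Agtrap, Lnpep and Atp6ap2 lay above 20 TPM in both mice, Agtr2, Enpep, Ace, Ren1 and Agt lay between 1 and 6 TPM, and Mas1 was at or near 0. In all, 8 of 9 members reached 1 TPM in both mice, while 54.1% of nuclear protein-coding genes did. From the highest mean to the lowest the order was Agtrap, Lnpep, Atp6ap2, Agtr2, Enpep, Ace, Ren1, Agt and Mas1. The neighbours Agtrap and Lnpep, Enpep and Ace, and Ren1 and Agt had overlapping ranges over the mice and were not apart beyond their spread. The other neighbours had ranges apart, but Ace was lowest at 2.70 TPM in mouse 1 and Ren1 highest at 2.69 TPM in mouse 2. In mouse 2, but not in mouse 1, the deposited intervals of TPM overlapped for Ace and Ren1 and for Agtr2 and Enpep. These levels depended on how length was counted. With counts referred to the length of the transcript with most counts, Agtrap averaged 24.2 TPM, Lnpep 23.0 TPM and Atp6ap2 20.99 TPM, and Agtr2 fell behind Enpep and Ace, as described with its transcripts. In the second quantification 7 of 9 members reached 1 TPM in both mice, Agt being at 0.994 TPM in mouse 2.

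**Figure D1:**
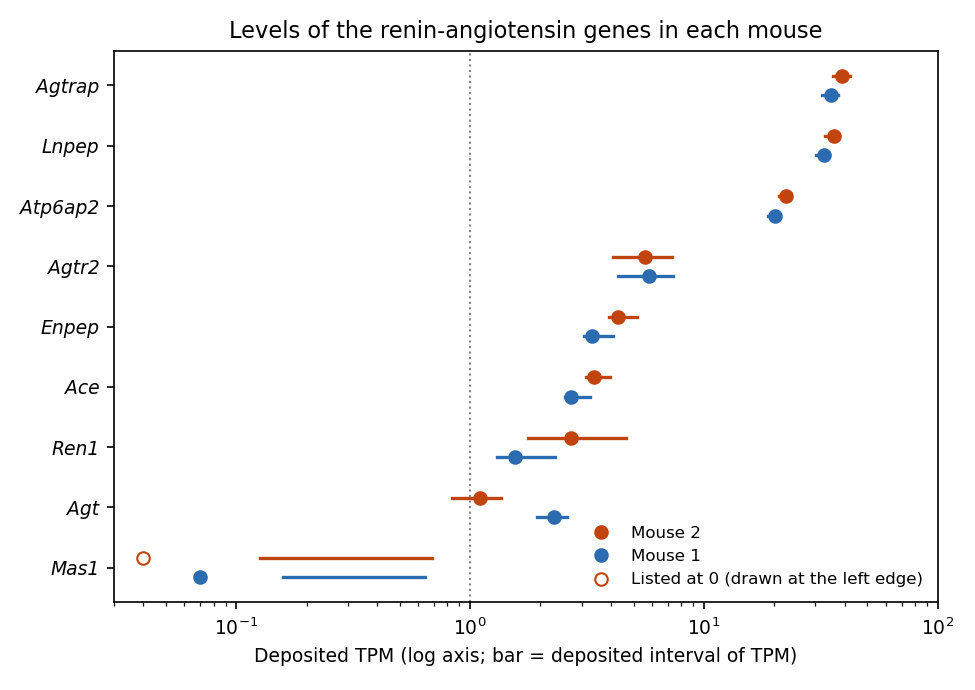
Deposited TPM of the 9 members (log axis) in mouse 2 and mouse 1, ordered by mean. Points are TPM and bars the deposited intervals of TPM. Agtrap, Lnpep and Atp6ap2 sit between 20.05 and 39.1 TPM. The bars of Agt, higher in mouse 1, and of Atp6ap2, higher in mouse 2, are apart between the mice. On scaled counts the log2 ratio of Atp6ap2 was 0.00098. Mas1, listed at 0 in mouse 2 and drawn at the left edge there, has points below its bars.

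Agt encodes angiotensinogen, the single precursor of all angiotensin peptides (chromosome 8, 124556534 to 124569706, minus strand, mm10). It had 65 expected counts and 1.10 TPM in mouse 2, against 167 counts and 2.29 TPM in mouse 1. The deposited intervals, whose level is not stated, ran from 0.84 to 1.36 TPM in mouse 2 and from 1.93 to 2.61 TPM in mouse 1. They did not overlap. Those of Atp6ap2, 21.01 to 23.31 TPM in mouse 2 and 18.81 to 20.87 TPM in mouse 1, did not overlap either. Its log2 ratio was 0.17 on deposited TPM, where the median over all genes tested was 0.16, and 0.00098 on scaled counts. The mean of Agt was 1.70 ± 0.84 TPM (SD, n = 2), above that of 49.2% of nuclear protein-coding genes.

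On TMM-scaled counts, the log2 ratio between mouse 2 and mouse 1 was -1.20 for Agt, with a 95% counting interval of -1.66 to -0.81. The exact binomial test on the counts of these libraries, adjusted by Benjamini-Hochberg over all genes tested, gave 3.27e-08. Agt was thus the 1 member at least 2-fold apart, out of 8 tested, and 2.96% of all 17666 genes tested were that far apart, 1.15% higher and 1.81% lower in mouse 2. A ratio as large as that of Agt in either direction was found for 1.80% of them. With a minimum mean of 100 counts, 28 of 12481 genes were 2-fold higher and 37 were 2-fold lower in mouse 2. The second quantification listed 71 counts in mouse 2 and 165 in mouse 1, a log2 ratio of -1.06.

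Fat and liver are known sources of angiotensinogen. All 10 adipocyte markers were higher in mouse 2, 9 of them beyond counting noise, against 10.4% of all genes tested. That share is over genes of all count depths. In either direction 21.3% of all genes tested were called, but 3457 of 12481 with a minimum mean of 100 counts. The adipocyte markers had a summed level of 2702 TPM in mouse 2 and 1613 TPM in mouse 1 and a median log2 ratio of 0.68. The highest of these were Cfd, which encodes adipsin, at 754 and 533 TPM, and Fabp4, a fatty acid carrier, at 567 and 329 TPM. Of the 10 liver markers 3 reached 1 TPM in both mice, with sums of 40.6 TPM in mouse 2 and 27.1 TPM in mouse 1, of which Hp, a gene that fat also expresses, made up 34.0 and 22.8 TPM. Beyond counting noise 2 of the 6 liver markers tested were higher in mouse 2, against the same 10.4%. They were Hp and Alb, the albumin gene. Alb was named after its values were seen and stood at 1.89 and 0.46 TPM. The part of these cells in the Agt difference was not tested.

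Ren1 encodes renin, the protease that cuts angiotensinogen (chromosome 1, 133350510 to 133360325, plus strand). It had 96 expected counts in mouse 2 and 95 in mouse 1. Its deposited TPM was 2.69 in mouse 2, against 1.56 in mouse 1, with intervals of 1.78 to 4.62 TPM and 1.30 to 2.30 TPM that overlapped. The effective length by which counts were divided was 1085 bases in mouse 2 and 1492 bases in mouse 1.

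In mouse 2, 3.01 counts with a posterior SD of 2.18 were placed on Ren1-202, an annotated coding fragment of 215 bases, and this made 29.6% of the TPM of the gene from 3.14% of its counts. The full transcript Ren1-201 had 1.90 TPM in mouse 2, against 1.56 TPM in mouse 1, and the second quantification placed every Ren1 count on it, at 1.83 and 1.54 TPM. The log2 ratio of scaled counts was 0.15, with a counting interval of -0.27 to 0.57 and an adjusted binomial p of 0.72, against 0.79 for the ratio of deposited TPM. Renin RNA was measured in both libraries, and its counts were not apart beyond counting noise.

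Kidney, the main source of renin, lies beside the gland. Of the 10 kidney markers none reached 1 TPM, 6 were listed at 0 in both mice, and their summed level was 0.25 TPM in mouse 2 and 0.34 TPM in mouse 1. Those at 0 were Umod, Slc12a1, Slc34a1, Slc22a6, Kap and Akr1c21, all genes of kidney tubules. In the second quantification 4 of the 10 were at 0 in both mice and the sum was 0.66 TPM in mouse 2, against 0.74 TPM in mouse 1. Slc12a3 had 50.02 and 50.06 counts there, against 3 and 0 in the first. The list held no marker of the renin-producing cells of the kidney itself.

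Ace encodes angiotensin-converting enzyme, which makes angiotensin II and is known from the surface of endothelial cells (chromosome 11, 105967945 to 105989964, plus strand). It had 504 counts and 3.38 TPM in mouse 2, against 524 counts and 2.70 TPM in mouse 1. The log2 ratio of scaled counts was 0.08 with a counting interval of -0.10 to 0.26. The counts did not differ beyond counting noise (adjusted exact binomial p = 0.622). The endothelial markers had a median log2 ratio of 0.07. Of the 10, 3 were higher in mouse 2 beyond counting noise, against 10.4% of all genes tested, a share over genes of all count depths. The part of these markers in the Ace values was not tested.

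Most Ace counts fell on the long transcript of the upstream start. Ace-201, the long somatic form that begins 3 bases before the RefSeq start of the upstream window, had 420 counts in mouse 2 and 510 in mouse 1. Ace-202, the short form that begins 19 bases after the RefSeq start of the internal window and is known from male germ cells, was listed at 0 counts in both mice and in both quantifications, with deposited posterior SDs of 6.36 counts in mouse 2 and 5.32 in mouse 1. The testis markers Tnp1, Prm1 and Prm2 were also at 0 in the first quantification, but in female samples this says nothing about Ace-202. Ace-203, an annotated coding transcript of 3649 bases whose start lies between these windows, had 83.6 counts with a posterior SD of 20.4 in mouse 2 and 13.6 counts with a posterior SD of 8.99 in mouse 1. It held 21.2% of the TPM of the gene in mouse 2 and 3.49% in mouse 1, and 19.1% and 6.41% in the second quantification. Ace-204, a processed transcript of 695 bases, was listed at 0 in the first quantification and held 16.3% and 10.3% of TPM in the second.

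Enpep encodes aminopeptidase A, which trims angiotensin II to angiotensin III (chromosome 3, 129269175 to 129332720, minus strand). It had 503 counts and 4.29 TPM in mouse 2, against 496 counts and 3.31 TPM in mouse 1. The log2 ratio was 0.15 with a counting interval of -0.03 to 0.34 and an adjusted exact binomial p of 0.244. The second quantification gave a ratio of 0.25 and an adjusted p of 0.0195, so this call depended on the table. The coding transcript Enpep-201 held 71.8% of TPM in mouse 2 and 77.9% in mouse 1, and Enpep-203, annotated as a retained intron, 17.4% and 12.85%. Enpep-205, annotated as a target of nonsense-mediated decay, held 10.9% and 9.24%. In the second quantification Enpep-201 held 59.2% and 49.6%.

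Lnpep encodes the insulin-regulated aminopeptidase, an M1 peptidase like Enpep that cuts vasopressin and oxytocin and binds angiotensin IV (chromosome 17, 17521410 to 17625050, minus strand). It had by far the most counts of the 9 members, 9516 in mouse 2 and 10585 in mouse 1, and 36.1 and 32.5 TPM. The log2 ratio was -0.02 with a counting interval of -0.06 to 0.02 and an adjusted exact binomial p of 0.579. With the largest number of counts, it had the narrowest interval among the members.

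The coding transcript Lnpep-201, of 12052 bases, held 90.2% of the counts in mouse 2 and 88.01% in mouse 1, but 60.6% and 58.9% of TPM. The rest of TPM was spread over shorter non-coding transcripts. Lnpep-206, a retained intron, held 14.0% and 17.1%, and the processed transcripts Lnpep-203 and Lnpep-202 held 9.34% and 14.0%, and 11.6% and 5.53%. The second quantification divided these differently, with 4.34% and 5.57% for Lnpep-206, 17.5% and 23.5% for Lnpep-203 and 20.6% and 13.4% for Lnpep-202.

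Among related peptidases, Enpep and Lnpep stood at 3.80 ± 0.69 and 34.3 ± 2.51 TPM (SD, n = 2). The 7 other genes listed from the M1 and Ace families ran from 0 for Ace3 to 24.9 TPM for Npepps. Lnpep lay above all 7 on deposited TPM. It was at 23.0 TPM when its counts were referred to the length of Lnpep-201, a basis on which the 7 were not computed.

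Atp6ap2 encodes the (pro)renin receptor, which binds renin and its precursor and is also an accessory subunit of the vacuolar proton pump (chromosome X, 12587801 to 12617049, plus strand). It had 1628 counts and 22.5 TPM in mouse 2, against 1786 counts and 20.05 TPM in mouse 1. The log2 ratio was 0.00098 with a counting interval of -0.10 to 0.10 and an adjusted exact binomial p of 1. Atp6ap2-201 held 98.55% and 97.75% of TPM, and the remainder fell on a retained intron.

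The other pump genes were set beside it. All 15 genes of the vacuolar pump list reached 1 TPM in both mice, and their levels ran from 22.7 ± 3.60 TPM for Atp6v1d to 151 ± 2.14 TPM for Atp6v0c and 136 ± 8.85 TPM for Atp6v1e1, with a median of 61.9 TPM. Atp6ap2, at 21.3 ± 1.74 TPM, lay below the mean of each of them, though within the spread of Atp6v1d. Of the 15, none was 2-fold apart and 6 were lower in mouse 2 beyond counting noise, against 11.0% of all genes tested. That share is over genes of all count depths, and calls were more frequent among genes with many counts. Their median log2 ratio was -0.03, the median over all genes tested being -0.0011.

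Agtrap encodes a small membrane protein that binds the tail of the Agtr1 receptors and promotes their internalisation (chromosome 4, 148077061 to 148088031, minus strand). It had 3214 counts and 39.1 TPM in mouse 2, against 3706 counts and 34.8 TPM in mouse 1. The log2 ratio was -0.07 with a counting interval of -0.14 to -0.0023 and an adjusted exact binomial p of 0.139, which became 0.0421 under ERCC scaling. The coding transcript Agtrap-201 took 92.3% and 93.0% of counts but 59.2% and 62.4% of TPM. Agtrap-203, a processed transcript of 621 bases, took 36.0% and 34.6% of TPM from 7.50% and 6.90% of counts, and the second quantification gave it 36.0% and 36.1%.

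**Figure D2:**
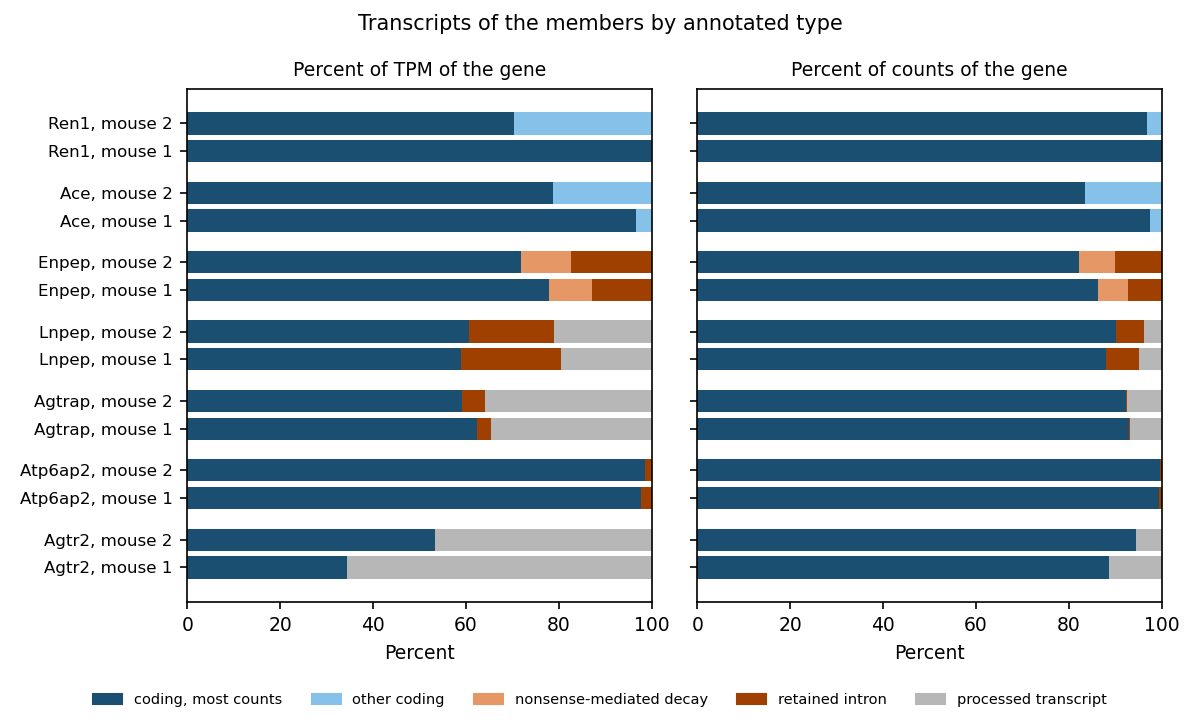
Share of each member's TPM (left) and of its expected counts (right) by annotated transcript type, for the 7 members with more than 1 transcript and at least 10 counts, in mouse 2 and mouse 1. Short transcripts take a larger share of TPM than of counts, most of all for Agtr2, where the processed transcript holds 46.65% and 65.5% of TPM but 5.55% and 11.3% of counts.

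The receptors differed widely in level. Agtr2 encodes the type of angiotensin II receptor known from the adrenal medulla of rodents (chromosome X, 21484544 to 21489164, plus strand). It had 332 counts and 5.62 TPM in mouse 2, against 293 counts and 5.81 TPM in mouse 1. The log2 ratio of scaled counts was 0.31 with a counting interval of 0.08 to 0.55, and the exact binomial test gave an adjusted p of 0.0337. That call was lost under ERCC scaling, with an adjusted p of 0.0526, and without a filter on low counts, with 0.058, while the second quantification gave a ratio of 0.36 and an adjusted p of 0.00966. Of the 6 chromaffin markers 5 were lower in mouse 2 beyond counting noise, against 11.0% of all genes tested. That share is over genes of all count depths. With a minimum mean of 100 counts, which all 6 markers pass, 3457 of 12481 genes were called in either direction. The median log2 ratio of the 6 was -0.22, and their part in the Agtr2 values was not tested.

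The sign for Agtr2 also depended on the readout, since the log2 ratio of deposited TPM was -0.05. Agtr2-202, a processed transcript of 314 bases, was given 18.4 counts in mouse 2 and 33.2 in mouse 1, with posterior SDs of 4.15 and 3.94, and these made 46.65% and 65.5% of the TPM of the gene. The coding transcript Agtr2-201, of 3283 bases, had 3.0 TPM in mouse 2, against 2.0 TPM in mouse 1. The second quantification put the whole gene at 3.72 and 3.53 TPM and Agtr2-201 at 73.2% and 53.0% of that. With all counts referred to the length of Agtr2-201 the mean level was 2.72 TPM, below Enpep at 3.37 and Ace at 2.93 TPM on the same basis.

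Mas1 encodes a receptor of a shortened angiotensin heptapeptide (chromosome 17, 12841079 to 12868143, minus strand). It was listed at 0 counts in mouse 2, where the floor of 3 counts is 0.0932 CPM (counts scaled to depth) and the exact Clopper-Pearson 95% upper bound is 0.115 CPM, and at 4 counts in mouse 1, or 0.109 CPM with an exact interval of 0.0298 to 0.28. These floors and intervals cover counting error only. In mouse 1 the counts were split between Mas1-204 and Mas1-205, 3.45 and 0.55. The deposited posterior mean averaged 0.38 TPM over both mice, against an average of 0.035 TPM for the listed 0 and 0.07 TPM. Mas1 was the member that did not pass the minimum of 10 mean counts, and at this depth its level could not be compared between the mice.

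Agtr1a, the main angiotensin II receptor of the rodent adrenal cortex and no member, stood at 81.5 ± 0.95 TPM, and its copy Agtr1b at 2.38 ± 0.15 TPM (SD, n = 2). Agtr1a was above Agtr1b, Agtr2 and Mas1 in each mouse, with 80.9 TPM in mouse 2, against 82.2 TPM in mouse 1.

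**Figure D3:**
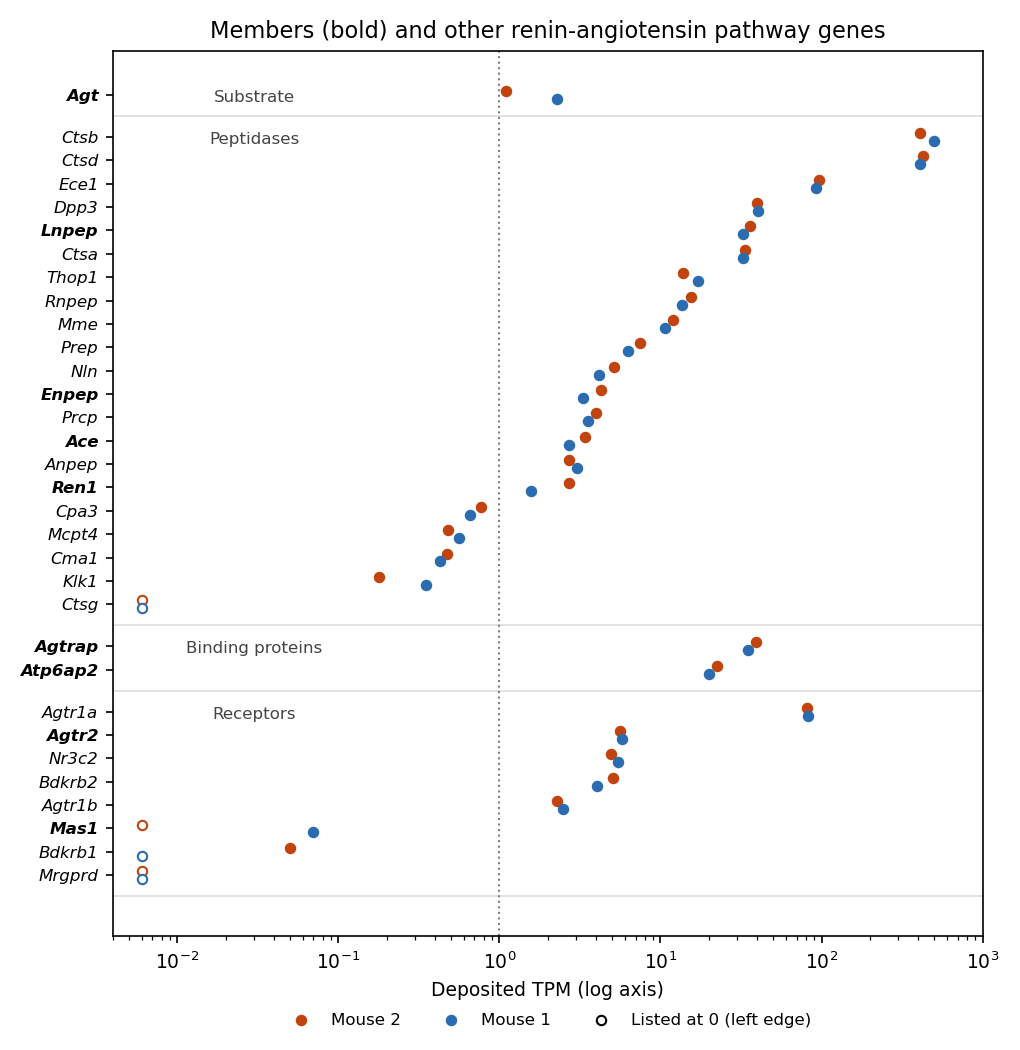
Deposited TPM (log axis) of the 9 members, in bold, and of 23 of the 24 other genes of the pathway, grouped as substrate, peptidases, binding proteins and receptors, in mouse 2 and mouse 1. Open points are genes listed at 0, drawn at the left edge. The lysosomal peptidase genes Ctsb and Ctsd, at 411 to 501 TPM, lie above Ren1 and Ace, at 1.56 to 3.38 TPM.

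The wider pathway was measured with 24 further genes. Of these 16 reached 1 TPM in both mice, and the median level was 4.59 TPM, against 3.80 TPM for the members. The 4 highest were Ctsb at 456 ± 63.8 TPM and Ctsd at 418 ± 11.2 TPM, general lysosomal proteases that can also act on angiotensinogen or prorenin in vitro, Ece1, the endothelin-converting enzyme, at 94.2 ± 3.15 TPM, and Agtr1a. Ece1 was lower in the second quantification, at 53.3 and 55.8 TPM, where Agtr1a had 66.8 and 64.7 TPM. Cma1, a mast cell chymase that can also make angiotensin II, stood at 0.45 ± 0.028 TPM. Mrgprd, a further receptor of the Mas family, and Ctsg were listed at 0 in both mice. None of the 7 mast cell markers, 2 of which (Mcpt4 and Cpa3) are also in the pathway list, reached 1 TPM.

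Of the 20 other pathway genes tested none was 2-fold apart. Beyond counting noise 1 was higher in mouse 2, the neutral endopeptidase gene Mme at a log2 ratio of 0.25, and 5 were lower, Ctsb at -0.43, Thop1 at -0.39, Ece1 at -0.15, Ctsd at -0.12 and Agtr1a at -0.08. Mme and Thop1 were named after their values were seen. That is 6 of 20, and among the members 2 of 8, while 21.3% of all 17666 genes tested were called by the same rule, 10.4% higher and 11.0% lower in mouse 2. With a minimum mean of 100 counts, 3457 of 12481 genes were called. The median log2 ratio was 0.04 over the 8 members tested and -0.03 over the 20 others.

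**Figure D4:**
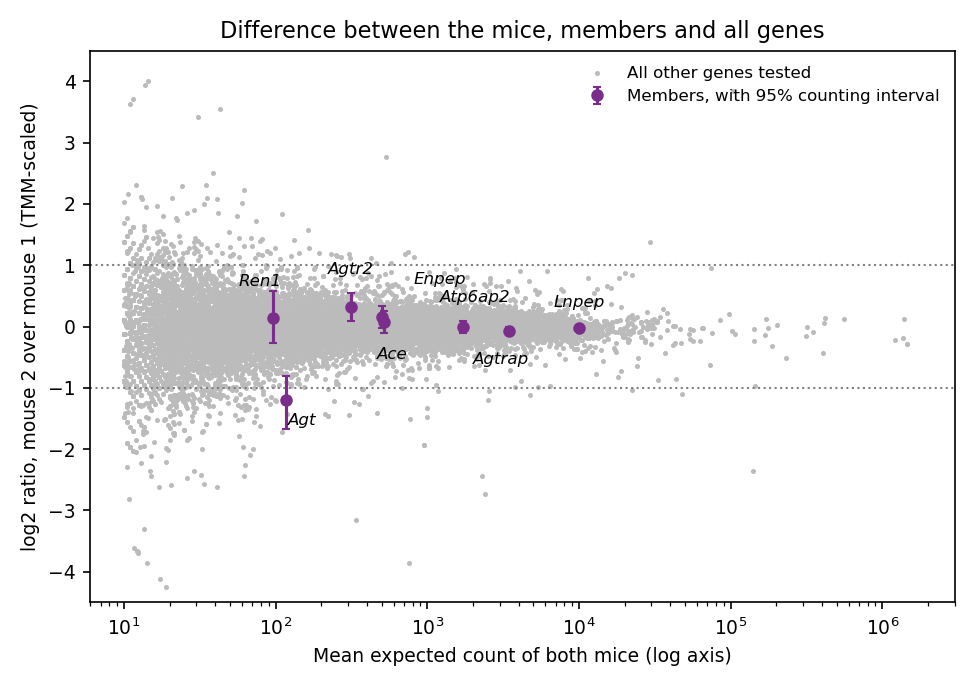
The log2 ratio of mouse 2 to mouse 1 on TMM-scaled counts against the mean expected count (log axis) for all 17666 genes tested, in grey, and for the 8 members tested, in purple with their 95% counting intervals. Dotted lines mark 2-fold, and 19 genes lie outside the range drawn. Agt, at -1.20, is the member below the lower line and the other 7 lie between -0.07 and 0.31.

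Ratios of deposited TPM were set beside those of scaled counts. The median log2 ratio of deposited TPM was 0.16 over 17639 genes, against a median near 0 for scaled counts, so a TPM ratio of that size is the level of the whole table. Atp6ap2 at 0.17, Agtrap at 0.17 and Lnpep at 0.15 lay close to it. Ren1 at 0.79, Enpep at 0.37 and Ace at 0.32 lay above it and Agtr2 at -0.05 and Agt at -1.06 below it. Relative to it, only Agt was also 2-fold apart on deposited TPM.

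**Figure D5:**
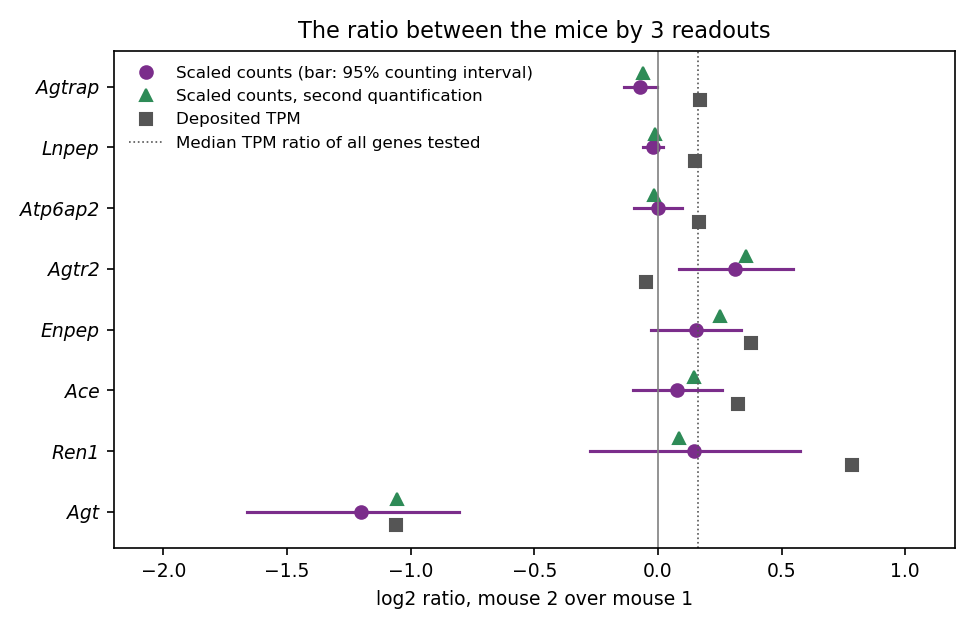
Log2 ratios, mouse 2 over mouse 1, for the 8 members tested, from scaled expected counts with a 95% counting interval (circles), from scaled counts of the second quantification (triangles) and from deposited TPM (squares). The dotted line is the median TPM ratio of all genes tested, 0.16. Each triangle lies within the counting interval of its member, while the squares of all members but Agt lie outside it.

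The second quantification, which per the deposited notes was made from the reads and a transcript index, placed no member of at least 1 TPM 2-fold or more from the first, and 4.84% of genes at that level, or 0.875% of nuclear protein-coding genes, were that far apart. The largest distance was that of Agtr2, with a log2 ratio of second to first of -0.64, and the others lay between -0.28 for Ren1 and 0.08 for Enpep. The deposited posterior SD of the gene count was 0 for 8 members and 0.81 and 0.65 counts for Atp6ap2 in mouse 2 and mouse 1. Airn, an imprinted RNA on the strand opposite to Mas1, and Gm11651, opposite to Ace, overlap these members, and whether the counting used strand is not given in the sources used here. Gm11651 was listed at 0 counts in both mice in the first quantification. CAST alleles were read against mm10, the genome of another strain, and the effect of that on these genes was not tested.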

How the data were processed

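Total RNA of 2 adrenal gland samples, 300 ng each with ERCC spike-ins, was sequenced. Per the deposited notes, the first quantification was made from transcriptome alignments and the second from reads with a transcript index (mm10, GENCODE M21). The sources used here name no aligner, quantifier or use of strand. The authors deposited expected counts, TPM, FPKM and, per transcript, the percent of the gene's TPM. The deposited posterior SDs and TPM interval bounds were used as signal values.

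Expected counts were rounded and scaled by TMM (edgeR 4.0.16, R 4.3.3, prior count 2). Genes with a mean of 10 counts were tested by the exact binomial test (two-sided), with Benjamini-Hochberg adjustment over all genes at 0.05. This test compares the 2 libraries, with counting error only. Log2 ratios between quantifications used a pseudocount of 0.1 TPM. Rows naming no gene, 0.527% and 0.503% of counts in mouse 2 and mouse 1, were left out. DESeq2 1.42.0 size factors, ERCC and total count scaling were alternatives. Plots and tables used Python 3.11.15, pandas 2.3.3, scipy 1.17.1 and matplotlib 3.10.9. Scripts were tested on simulated data.

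The members and lists were chosen with earlier results of these data known. Named were all members, their transcripts holding at least 10% of the gene, and from the pathway list Agtr1a, Agtr1b, Cma1, Mrgprd, the 4 highest and those at 0 in both mice. From the pump list the 2 highest and the lowest were named, and from marker lists the highest 1 or 2. Ace-202, Mcpt4, Cpa3, Slc12a3 and the kidney and testis markers at 0 were named outside this rule, after their values were seen. A further pathway gene is not reported here by name.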

Additional observations from a re-analysis of the deposited data

Results flagged for a closer look

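Of the 5 genes that overlap a member, Airn and Gm49784 held counts in the first quantification. Airn, antisense to Mas1 over 19058 bases, had 53 expected counts in mouse 2 and 111 in mouse 1, or 1.80 and 3.21 TPM, while Mas1 had 0 and 4 counts. Its log2 ratio was -0.91 (adjusted exact binomial p = 0.000854). Gm49784, on the strand of Lnpep and overlapping it over 1094 bases, had 2 expected counts in mouse 2 and 5 in mouse 1. There were no control samples, and counts were set against the limit that a count of 0 allows, 3 counts, which the 2 counts of Gm49784 in mouse 2 did not reach.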

How the results depend on the processing

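With a level of 5 TPM in place of 1 TPM, 4 members and 10 other pathway genes reached it in both mice. Over all genes, 1346 were 2-fold higher and 1310 lower in mouse 2 with no count filter, and 28 higher and 37 lower with a minimum mean of 100 counts. Leaving out each mouse in turn gave 8 and 8 members and 16 and 16 pathway genes at 1 TPM, and 0 members apart between quantifications. The second quantification put 7 members at 1 TPM. For Agt the log2 ratio stayed between -1.22 and -1.06 and the adjusted exact binomial p between 1.46e-08 and 9.5e-07 over its alternatives. Under ERCC scaling Agtrap was called and Agtr2 was not. The Lnpep ratio, not called, was 0.03 under total count scaling. Rescaling TPM to nuclear protein-coding genes raises every value by construction. It moved the mean of Agt from 1.70 to 5.59 TPM and that of Ren1 from 2.13 to 6.81 TPM, so levels set against 1 TPM depend on this scale. The second quantification moved 2 mean TPM values, those of Atp6ap2 and Agtr2, down by more than the SD between the mice. The share of the leading transcript moved for 5 of 8 members in the second quantification. No count-based ratio that was called changed sign, but the deposited TPM ratio of Agtr2 was -0.05. No paired analysis was possible because the samples form 1 group.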
